A study of Mus musculus with 8 samples.

Results

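The genes described here are 45 regulators and effectors of the cell division cycle, listed by the phase in which they are best known to act, with 15 genes of G1, 13 of S and 17 of G2/M. Probes were assigned to them through the accession in the array design, and 44 of the 45 had at least 1 matched probe, out of 17178 gene symbols matched on the whole array. The gene without a matched probe was Ccnd1, a G1 cyclin, which was not analysed here. RNA was taken from the medial ganglionic eminence (MGE), the ventral forebrain swelling in which many cortical interneurons and basal ganglia neurons are born, dissected from mouse embryos of strain C57BL/6 at embryonic day 13.5. The 4 WT samples carried the genotype Nkx2-1flox/+ with Olig2tva-cre-, and the 4 Nkx2-1cKO samples carried Nkx2-1flox/+ with Olig2tva-cre+, so that the floxed allele is shared by both groups and the Cre is not. The labels thus give a heterozygous floxed genotype for the mutants, whereas the methods name the Nkx2-1f/f strain and an Olig2-tva-Cre driver, which recombines in Olig2-expressing progenitors. The labels do not say whether a sample was 1 embryo or a pool, or whether samples came from separate litters, so p-values measure the spread between these samples, which may be partly technical.

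Cells commit to division in G1, when cyclin D with Cdk4 or Cdk6 and cyclin E with Cdk2 phosphorylate the retinoblastoma protein and release E2F transcription factors, against the brake of the Cdk inhibitors. E2F factors switch on the genes of DNA replication in S phase, and a later wave of transcription, tied to B-Myb, FoxM1 and the DREAM complex, supplies the kinases, motors and checkpoint proteins of G2 and mitosis. In the embryonic MGE the dividing cells are the radial glia of the ventricular zone (VZ) and the secondary progenitors of the subventricular zone (SVZ), while neurons of the mantle zone (MZ) have left the cycle. The dissected tissue holds all of these layers.

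The wave of transcription to which a gene belongs is in part written in its promoter, so the windows upstream of the start site were searched in a RefSeq promoter table (GRCm38.p6, 250 bases before to 50 bases after each start site). It held 35 of the 45 members. No entry was matched for Ccnd1, Ccnd2, Ccne2, Cdkn1c, Rb1, Mcm4, Gmnn, Ccna2, Aurkb and Tpx2. The E2F-like strings TTTCGCG or TTTGGCG or TTTCCCG or TTTGCCG, read on both strands, were present in 6 of 11 S members (54.5%), 3 of 10 G1 members (30.0%) and 2 of 14 G2/M members (14.3%), against 7.65% of the 27025 genes in the table. The CHR-like strings TTTGAA or TTCGAA, after the cell cycle genes homology region through which mitotic genes are held off, were present in 11 of 14 G2/M members (78.6%), 2 of 11 S members (18.2%) and 1 of 10 G1 members (10%), against 21.7% of all genes. The CCAAT box, the string bound by NF-Y, was present in 13 of 14 G2/M members (92.9%), 8 of 11 S members (72.7%) and 5 of 10 G1 members (50%), against 41.1% of all genes. A match is a string of letters and not a measured binding site.

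Promoter windows of 200 bases before the start site are shown for 2 S members and 2 G2/M members, 5′ to 3′ on the strand of the gene, because they carry the strings that differ between the phases. Capitals mark the E2F-like strings in Mcm5 (chr8:75109309-75109508 on the plus strand) and Mcm6 (chr1:128359706-128359905 on the minus strand), and overlapping copies run together.
Mcm5: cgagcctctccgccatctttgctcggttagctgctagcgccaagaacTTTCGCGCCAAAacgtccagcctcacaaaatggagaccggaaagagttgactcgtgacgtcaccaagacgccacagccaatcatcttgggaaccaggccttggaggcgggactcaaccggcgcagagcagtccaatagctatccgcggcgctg
Mcm6: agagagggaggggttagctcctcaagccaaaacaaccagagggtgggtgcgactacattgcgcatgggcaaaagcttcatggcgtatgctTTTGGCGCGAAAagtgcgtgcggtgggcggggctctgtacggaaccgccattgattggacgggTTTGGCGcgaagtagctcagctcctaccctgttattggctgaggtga
Capitals mark the CHR-like strings in Cdk1 (chr10:69352913-69353112 on the minus strand) and Mki67 (chr7:135716380-135716579 on the minus strand).
Cdk1: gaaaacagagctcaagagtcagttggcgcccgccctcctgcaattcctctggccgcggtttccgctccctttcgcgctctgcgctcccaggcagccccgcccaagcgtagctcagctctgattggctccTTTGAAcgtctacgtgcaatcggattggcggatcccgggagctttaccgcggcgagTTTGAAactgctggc
Mki67: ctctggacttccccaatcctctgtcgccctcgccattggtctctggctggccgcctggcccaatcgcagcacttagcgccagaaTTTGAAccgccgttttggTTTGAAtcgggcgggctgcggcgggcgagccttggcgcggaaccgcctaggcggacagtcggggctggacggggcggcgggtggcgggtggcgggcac
In Mcm5 the copies begin at positions -153 and -148 relative to the start site and lie on opposite strands, and in Mcm6 they begin at -110, -105 and -47. The CHR-like copies begin at -71 and -15 in Cdk1 and at -116 and -98 in Mki67. Cdk1 also holds an E2F-like string at -131, which is left in lower case.

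The arrays measured 1 sample each, with 4 arrays on each of 2 slides and 2 samples of each genotype per slide. Signals are given as the log2 of the spot intensity minus the log2 of that array's 75th percentile, an intensity of 2413 to 2573 on the WT and of 2026 to 2522 on the Nkx2-1cKO arrays. A probe entered the test if 4 or more of the 8 arrays had it well above background, which gave 31280 probes and 14447 genes, each gene represented by its tested probe of highest mean signal. Nkx2-1 lay between 1.82 and 1.95 on the WT arrays and between -4.66 and -4.26 on the Nkx2-1cKO arrays (adjusted p = 4.67e-09, limma), and the sources used here do not say where its probe lies relative to the floxed part. All 7 subpallial markers examined, among them Dlx2 and Gad1, were well above background on all 8 arrays, and 0 of them passed the threshold. Of these 7, 5 had an unadjusted p under 0.05 (3 higher and 2 lower, limma), beside 9.48% of all genes. With slide as a block 1 of them, Dlx1, passed the threshold, lower in the Nkx2-1cKO (adjusted p = 0.0231, limma). The summed level of 8 mesenchymal markers was 3.59 times the WT median in WT replicate 4, against 0.767 to 1.03 times in the Nkx2-1cKO arrays, and 7 of these 8 were well above background on all 8 arrays. Of the 8, 1 passed the threshold, Pdgfra, which was lower in the Nkx2-1cKO (adjusted p = 5.03e-05, limma). Leaving out WT replicate 4 gave member medians of 0.08 for G1, 0.09 for S and 0.10 for G2/M.

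No measured cell cycle gene was called different between the genotypes in any phase. None of the 44 members passed an adjusted p of 0.05 in either direction (limma, Benjamini-Hochberg over all 31280 probes), where 0.491% of all 14447 genes were called higher, 0.851% lower and 1.34% in either direction in the Nkx2-1cKO. The lowest adjusted p was 0.474 (limma), and a count of 0 among 44 members is close to these shares. At an unadjusted p of 0.05, 3 members were higher (Ccnd2, Ccne1 and Ccna2) and 0 were lower, beside 4.26% and 5.22% of all genes. With slide as a block in the same fit, 0 members passed the adjusted threshold where 1.90% of all genes did, and 4 members had an unadjusted p under 0.05, beside 16.1% of all genes. None had all Nkx2-1cKO arrays above or all below the WT arrays on its representative probe, while 2.82% and 4.02% of all genes did. Because the samples are whole MGE, a difference in the share of dividing cells and a difference in RNA per dividing cell cannot be told apart.

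The 95% interval of the difference lay within 1.5-fold in either direction for 39 of the 44 members, as it did for 66.4% of all genes. This held for 10 of 14 G1, 13 of 13 S and 16 of 17 G2/M members. The exceptions were Ccnd2, E2f1, Cdkn1b and Cdk2 of G1 and Aurkb of G2/M. These intervals are not adjusted over genes and rest on the scaling to the 75th percentile.

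The sign of the small differences leaned one way and depended on the processing. Means were higher in the Nkx2-1cKO for 33 of the 44 members (8 of 14 G1, 13 of 13 S and 12 of 17 G2/M), beside 49.7% of all genes. The median log2 fold change was 0.07 for G1 (range -0.26 to 0.39), 0.10 for S (0.00 to 0.21) and 0.11 for G2/M (-0.13 to 0.25), against -0.0017 over all genes. With normexp background correction, which moved the median of all probes by 0.24, 23 members were higher beside 66.2% of all genes, and their median of 0.0039 differed by -0.080 from the all-gene median of 0.084. With each array centred on its median, which moved the median of all probes by 0.12, 40 members were higher beside 70.1% of all genes, and their median lay 0.10 above that of all genes. Quantile normalization left 29 higher beside 52.2% of all genes, with a median 0.034 above that of all genes. The sign of the members' median relative to all genes thus turned in the normexp setting and not with the 2 other scalings. That setting also used the median spot intensity and an offset of 50, and these parts were not told apart.

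**Figure D1:**
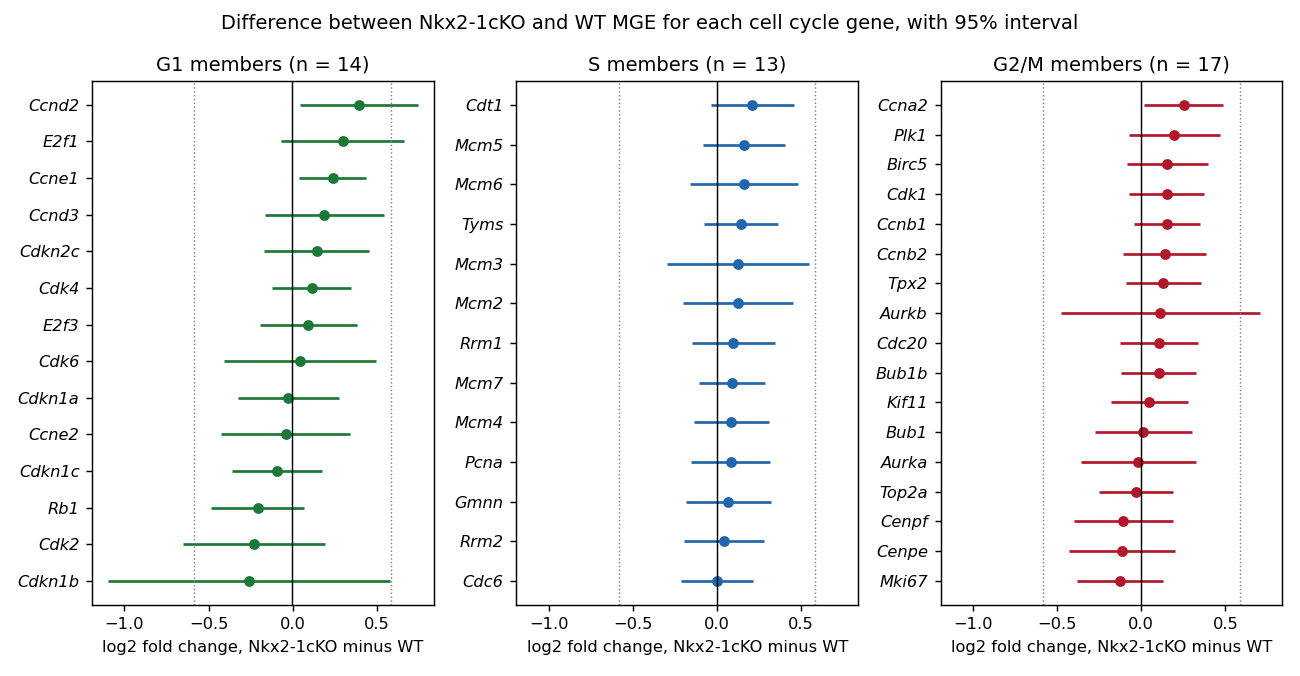
Log2 fold change of each of the 44 tested members, Nkx2-1cKO minus WT (n = 4 arrays each), with its unadjusted 95% interval as a horizontal line, in panels for G1, S and G2/M. The solid vertical line is the median over all 14447 genes and the dotted lines mark 1.5-fold; 39 of the 44 intervals stay between the dotted lines, and Cdkn1b and Aurkb have the widest.

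Among the G1 activators, Ccnd2, a D-type cyclin of neural progenitors, had the largest difference of any member. Its log2 signal was 4.71, 4.97, 4.56 and 5.01 in WT replicates 1 to 4 and 5.26, 4.83, 5.57 and 5.15 in Nkx2-1cKO replicates 1 to 4. The groups overlapped through Nkx2-1cKO replicate 2, but within each slide both Nkx2-1cKO arrays were above both WT arrays. The difference was 0.39 (1.31-fold, standard error 0.16, adjusted p = 0.524, limma), or 0.36 on slide 1 and 0.43 on slide 2. Fitting slide as a block gave an adjusted p of 0.0938, the lowest of a range up to 0.947 over 17 alternatives (limma). Both further probes of Ccnd2 differed by 0.19 and 0.25 in the same direction. Within slides the first of these was not of one sign, at -0.19 on slide 1 and 0.56 on slide 2. How many of all genes separate within both slides was not counted, so the pattern has no background share beside it.

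E2f1, the transcription factor that drives entry into S phase, gave a like pattern. It measured -0.29, 0.01, -0.40 and 0.05 on the WT arrays and 0.29, -0.25, 0.44 and 0.08 on the Nkx2-1cKO arrays. Again the groups overlapped across slides and separated within each slide, where slide 2 lay 0.41 above slide 1. As for Ccnd2, this separation has no share of all genes beside it. The log2 difference was 0.30 (standard error 0.16, adjusted p = 0.636, limma), with an adjusted p of 0.193 under the slide block and a range up to 0.951 over the alternatives (limma). The dimmer E2f1 probe ran from -1.29 to -1.17 over the WT arrays and from -1.14 to -0.82 over the Nkx2-1cKO arrays without overlap, a difference of 0.28 (adjusted p = 0.419, limma; exact two-sided permutation p = 0.0286, the smallest that 4 arrays against 4 allow). That probe was named after its values were seen, and groups without overlap always give this permutation p. On representative probes, 2.82% of all genes had all Nkx2-1cKO arrays above all WT arrays.

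Ccne1, the E-type cyclin that activates Cdk2 at the end of G1, is given because it had the lowest adjusted p of the representative probes and was chosen after its values were seen. Its log2 signals were 1.52, 1.26, 1.34 and 1.34 in WT and 1.72, 1.49, 1.55 and 1.65 in the Nkx2-1cKO. Only WT replicate 1 reached into the range of the mutants. The difference was 0.24 (1.18-fold, standard error 0.09, adjusted p = 0.474, limma), and a dimmer probe differed by 0.13. The related Ccne2 differed by -0.04 and Cdk2, the kinase partner of both, by -0.23, each with an interval that includes 0.

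The Cdk inhibitors gave no common direction. For Cdkn1b, which encodes p27 and holds cells out of the cycle, the log2 signals were 0.94, 1.16, 1.01 and 0.94 in WT and 1.18, 1.28, -0.64 and 1.18 in the Nkx2-1cKO. A single array, Nkx2-1cKO replicate 3, lay far below the other 7, which gave a difference of -0.26 (standard error 0.37, adjusted p = 0.820, limma). Without that array the difference was 0.20, and the dimmer Cdkn1b probe, on which that array was the highest of the mutants, gave -0.14. Cdkn1a, which encodes p21, was the G1 member nearest 0, with -0.50, -0.52, -0.48 and -0.14 in WT and -0.17, -0.43, -0.44 and -0.71 in the Nkx2-1cKO. The groups overlapped, although WT replicate 4 was the highest and Nkx2-1cKO replicate 4 the lowest of all 8 arrays, and differed by -0.03 (standard error 0.13, adjusted p = 0.955, limma). Cdkn1c, which encodes p57, differed by -0.09 and Cdkn2c, an inhibitor of Cdk4 and Cdk6, by 0.14. Of the other G1 members, Ccnd3 differed by 0.19, Cdk4 by 0.11, Cdk6 by 0.04, E2f3 by 0.09 and Rb1, which encodes the retinoblastoma protein, by -0.21, with adjusted p from 0.651 to 0.952 (limma).

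Of the S phase genes, Cdt1, which loads the replicative helicase onto origins, differed most. Its log2 signals were 2.55, 2.39, 2.35 and 2.21 in WT and 2.77, 2.34, 2.56 and 2.67 in the Nkx2-1cKO. Nkx2-1cKO replicate 2 lay within the WT range and the other 3 mutant arrays lay above it. The difference was 0.21 (1.16-fold, standard error 0.11, adjusted p = 0.626, limma), made up of 0.06 on slide 1 and 0.37 on slide 2. Gmnn, which encodes the Cdt1 inhibitor geminin, differed by 0.07.

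The subunits of the Mcm helicase were close to one another. Mcm5 measured 3.51, 3.46, 3.16 and 3.40 in WT and 3.61, 3.29, 3.64 and 3.63 in the Nkx2-1cKO, a difference of 0.16 (standard error 0.11, adjusted p = 0.664, limma). For Mcm6 the values were 4.73, 4.97, 4.53 and 4.72 in WT and 5.22, 4.59, 5.02 and 4.75 in the Nkx2-1cKO, also 0.16 apart (standard error 0.14, adjusted p = 0.721, limma). In both genes WT replicate 3 and Nkx2-1cKO replicate 2 were the lowest arrays of their groups, and the groups overlapped. Mcm2, Mcm3, Mcm4 and Mcm7 differed by 0.12, 0.13, 0.08 and 0.09. The origin licensing factor Cdc6 was the member nearest 0 of all, with 0.17, 0.08, -0.11 and 0.18 in WT and 0.17, -0.05, 0.09 and 0.11 in the Nkx2-1cKO. Its groups shared the same range and its difference was 0.00, with a 95% interval from -0.21 to 0.21. Pcna, the sliding clamp of the polymerases, differed by 0.08, and the nucleotide synthesis genes Rrm1, Rrm2 and Tyms by 0.10, 0.04 and 0.14. Adjusted p over the S members ran from 0.626 to 0.998 (limma).

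The G2/M member with the largest difference was Ccna2, the cyclin that acts from S phase into mitosis. It gave 3.48, 3.43, 3.24 and 3.49 in WT and 3.87, 3.42, 3.65 and 3.71 in the Nkx2-1cKO. Of the 4 mutant arrays, 3 were above all WT arrays and replicate 2 was not. The difference was 0.25 (1.19-fold, standard error 0.11, adjusted p = 0.543, limma). Ccnb1 and Ccnb2, the B-type cyclins, differed by 0.15 and 0.14, and Cdk1, the kinase that they activate, by 0.15.

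Plk1, a kinase of mitotic entry and spindle assembly, measured 3.74, 3.41, 3.45 and 3.47 in WT and 3.67, 3.43, 3.96 and 3.80 in the Nkx2-1cKO. WT replicate 1 and Nkx2-1cKO replicate 2 crossed into the other group, and the difference of 0.20 (standard error 0.12, adjusted p = 0.657, limma) was -0.01 after normexp background correction. Birc5, which encodes survivin of the chromosomal passenger complex, measured 4.09, 3.81, 3.86 and 3.76 in WT and 4.05, 3.85, 3.97 and 4.26 in the Nkx2-1cKO, 0.15 apart with overlapping groups (standard error 0.11, adjusted p = 0.665, limma). Bub1, a kinase of the spindle checkpoint, was the G2/M member nearest 0, with 1.27, 0.92, 0.78 and 1.02 in WT and 1.10, 0.96, 0.77 and 1.21 in the Nkx2-1cKO. It differed by 0.01 (standard error 0.13, adjusted p = 0.980, limma), and its partner Bub1b by 0.10. The anaphase activator Cdc20, the spindle motor Kif11 and the spindle assembly factor Tpx2 differed by 0.11, 0.05 and 0.13.

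Of the 17 G2/M members, 5 had lower means in the Nkx2-1cKO: Mki67, Cenpe, Cenpf, Top2a and Aurka. Mki67, the common marker of dividing cells, was chosen after its values were seen as the lowest of them. It measured 4.40, 3.95, 3.88 and 3.98 in WT and 3.995, 3.88, 3.84 and 3.99 in the Nkx2-1cKO. WT replicate 1 stood above the other 7 arrays, which lay close together, and the difference was -0.13 (standard error 0.11, adjusted p = 0.721, limma). The kinetochore genes Cenpe and Cenpf differed by -0.11 and -0.11, the topoisomerase Top2a by -0.03 and the centrosomal kinase Aurka by -0.02. For Mki67, Cenpe, Cenpf and Top2a alike, WT replicate 1 was the highest array of its group. Without WT replicate 1, only 1 of the 17 was lower on its representative probe, Mki67, at -0.011. With all arrays kept, the dimmer probes differed by -0.19 for Mki67, -0.27 and -0.19 for Cenpe and -0.43 for Cenpf. The dimmer Top2a probe went the other way, at 0.15. On slide 2, which does not hold WT replicate 1, these probes differed by -0.14, -0.19, -0.28, -0.34 and 0.26, in the same order. Their differences in the fit without WT replicate 1 are not reported here.

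**Figure D2:**
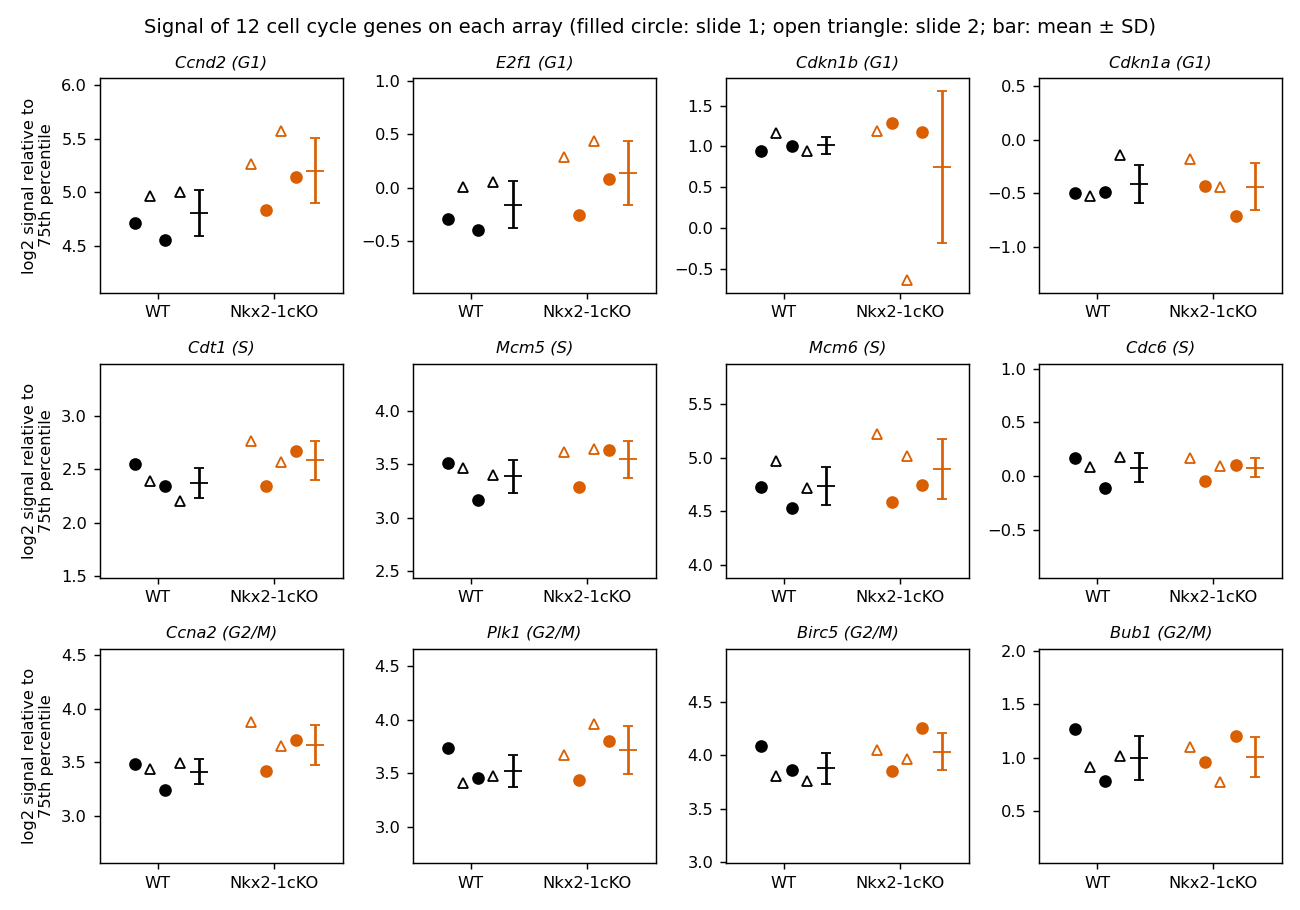
Log2 signal relative to the array's 75th percentile for 12 members on each of the 4 WT and 4 Nkx2-1cKO arrays, with slide 1 as filled circles, slide 2 as open triangles and the group mean ± SD as a bar; the vertical scale differs between panels. The groups overlap in every panel, and Cdkn1b has 1 mutant array at -0.64. Ccnd2 and E2f1 separate within each slide, a pattern not counted over all genes.

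Aurkb, the kinase of the chromosomal passenger complex, had the largest slide difference of the members and was chosen for it after its values were seen. On slide 1 it measured 0.49 and 0.33 in WT and 0.43 and 0.47 in the Nkx2-1cKO, and on slide 2 it measured -0.37 and -0.37 in WT and 0.13 and -0.51 in the Nkx2-1cKO. All 4 arrays of slide 1 were above all 4 of slide 2, by 0.71 (adjusted p = 0.00856 for the slide term, limma). The difference between genotypes was 0.11 (standard error 0.26). The slide term passed the threshold for 6 members (Ccnd2, Ccnd3, E2f1, Mcm3, Mcm6 and Aurkb), beside 15.9% of all genes. The first 5 were higher on slide 2 and Aurkb was higher on slide 1. Within slides, the median difference between genotypes over the members was 0.04 on slide 1 and 0.17 on slide 2, and for the S members it was 0.01 and 0.21. The sign was the same on both slides for 26 of 44 members.

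Arrays of the same genotype differed from each other as much as the genotypes did. In each genotype the medians of G1, S and G2/M members were lowest on the same array, while the order of the other arrays differed. Each member's signal was set relative to its own mean over the 8 arrays, and the median was taken over the members of a phase. For S these medians were 0.07, 0.00, -0.19 and -0.10 in WT and 0.19, -0.18, 0.10 and 0.11 in the Nkx2-1cKO. Averaged over the 4 arrays of a group, the S median was -0.05 ± 0.12 (SD) for WT and 0.05 ± 0.16 (SD) for Nkx2-1cKO. WT replicate 3 and Nkx2-1cKO replicate 2, which share slide 1, were low in both genotypes. Among the mutants, replicate 2 was the lowest array for 13 of 13 S, 9 of 14 G1 and 13 of 17 G2/M members, and among the WT, replicate 3 was the lowest for 10 of 13 S, 10 of 14 G1 and 12 of 17 G2/M members. The all-gene medians of these arrays were -0.06 and -0.05, and over all 8 arrays they ran from -0.06 to 0.06.

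The G1 medians had the same order at their low end, with 0.05, -0.02, -0.19 and 0.07 in WT and 0.22, -0.17, 0.15 and 0.06 in the Nkx2-1cKO. In G2/M they were 0.12, -0.08, -0.16 and -0.05 in WT and 0.10, -0.12, 0.03 and 0.16 in the Nkx2-1cKO. WT replicate 1 was the highest WT array for 12 of 17 G2/M members and 8 of 13 S members. Markers of radial glia, the progenitors of the VZ, also had their highest median on WT replicate 1 (0.23) and their lowest on Nkx2-1cKO replicate 2 (-0.22). The sum of 10 such markers was 0.957 to 1.18 times the WT median on WT arrays and 0.893 to 1.07 times on Nkx2-1cKO arrays. All 10 were well above background on all 8 arrays, and 0 passed the threshold. At an unadjusted p under 0.05, 2 were lower and 0 higher (limma), beside 5.22% and 4.26% of all genes. The sum over 10 markers of postmitotic neurons was 0.980 to 1.05 times on WT arrays and 0.950 to 1.05 times on Nkx2-1cKO arrays. Means were higher for 5 and lower for 5, and 0 passed the threshold. At an unadjusted p under 0.05, 2 were lower and 0 higher (limma), beside the same shares of all genes. Of the 10, 2 had all Nkx2-1cKO arrays below all WT arrays, beside 4.02% of all genes. The median deviation of these markers was 0.03 to 0.05 on WT arrays and -0.11 to 0.01 on Nkx2-1cKO arrays, without overlap. The part of these cell types in the array-to-array movement of the members was not tested.

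**Figure D3:**
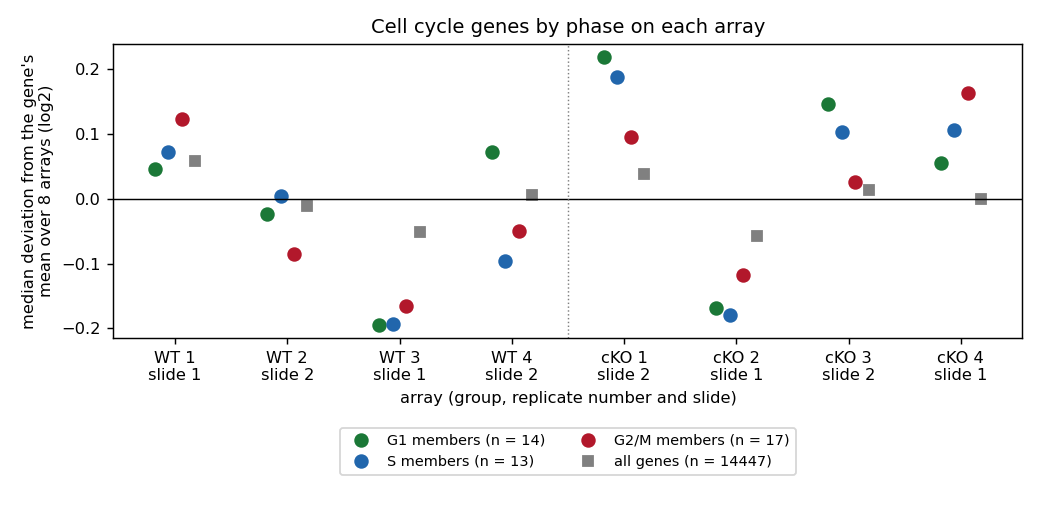
Median deviation (log2) of the G1, S and G2/M members and of all genes from their own means over the 8 arrays, for each array with its slide. WT replicate 3 and Nkx2-1cKO replicate 2 are low in all 3 phases, between -0.12 and -0.19, while the all-gene medians stay within 0.06 of 0.

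Leaving out 1 mutant array changed how many members passed the unadjusted threshold. Without Nkx2-1cKO replicate 2, 11 members had an unadjusted p under 0.05 in place of 3, beside 12.9% of all genes in that fit, with a lowest adjusted p of 0.193 (limma) and medians of 0.16 for G1, 0.18 for S and 0.15 for G2/M. Over the 8 fits that left out 1 array, the lowest adjusted p of any member ranged from 0.193 to 0.765 (limma), and 0 members passed in each. Without WT replicate 3 the member median was 0.04, with 0 members at an unadjusted p under 0.05, beside 8.68% of all genes.

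Different probes of a member were not always of one sign. All 66 tested member probes were well above background on all 8 arrays, and 1 further probe, of Cdk2, was too dim to test. Of 18 members with more than 1 tested probe, 6 had probes that differed in sign, with no such probe under an unadjusted p of 0.05. For Cdk6 the brighter probe differed by 0.04 and the dimmer by -0.38, and for Cdk1 by 0.15 and -0.26. Top2a gave -0.03 and 0.15, Ccnb1 gave 0.15, 0.04 and -0.01, Bub1 gave 0.01 and -0.05, and Kif11 gave 0.05 and -0.01. Over all member probes, 7 had an unadjusted p under 0.05, of which the dimmer Cenpf probe at -0.43 was the only one lower in the Nkx2-1cKO. This share may be read beside 8.60% of all probes.

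A wider list of cell cycle genes is given beside the members. Of 132 further genes, 126 were tested and 0 passed the adjusted threshold, beside 1.34% of all genes. At an unadjusted p under 0.05, 3 were higher and 1 lower (limma), beside 4.26% and 5.22% of all genes. With slide as a block these counts were 14 and 1, beside 16.1% of all genes in either direction. Means were higher for 10 of 21 G1, 38 of 46 S and 37 of 59 G2/M genes, beside 49.7% of all genes. The median differences were -0.01, 0.10 and 0.07. Mnat1, a subunit of the Cdk-activating kinase, had all Nkx2-1cKO arrays (0.85 to 1.11) above all WT arrays (0.59 to 0.68), with a difference of 0.32 (adjusted p = 0.168, limma). Aspm, a spindle pole protein of neural progenitors, had all Nkx2-1cKO arrays (-0.43 to -0.18) below all WT arrays (-0.12 to 0.52), with a difference of -0.42 (adjusted p = 0.377, limma). Both were named after their values were seen, and they are 1 gene in each direction of 126, where 2.82% of all genes lay above and 4.02% below without overlap. The promoters of the further genes held the E2F-like strings in 53.8% of S and 19.6% of G2/M genes, and the CHR-like strings in 68.6% of G2/M and 23.1% of S genes. For G1 these shares were 57.9% and 47.4%, above the 30.0% and 10% of the 10 G1 members.

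**Figure D4:**
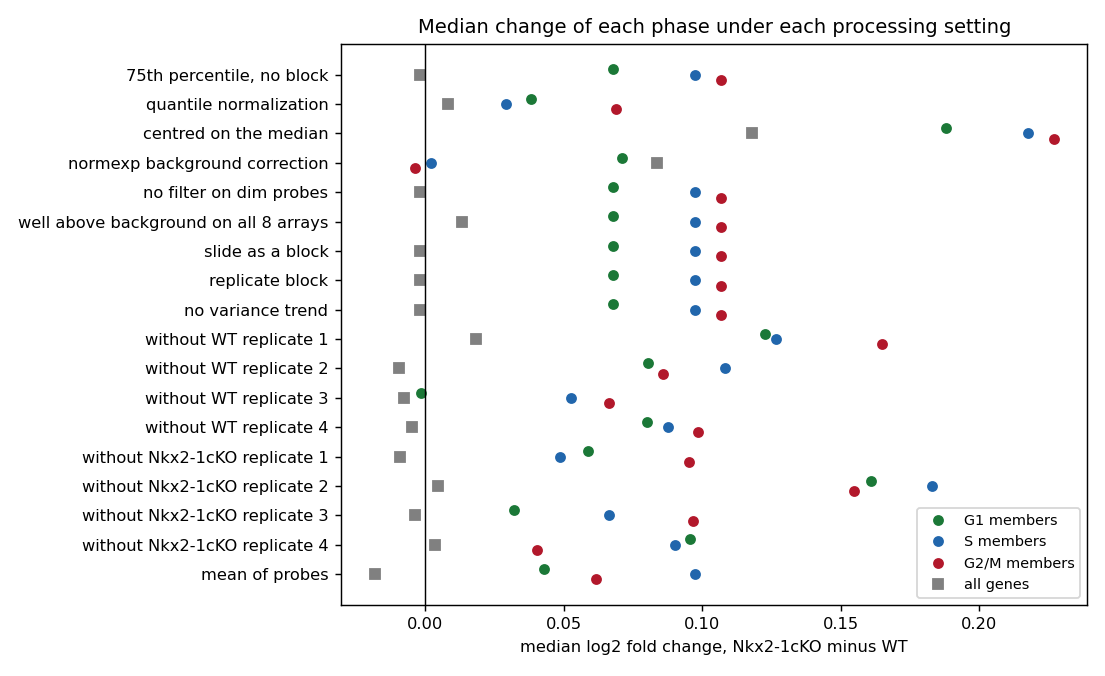
Median log2 fold change (Nkx2-1cKO minus WT) of the G1, S and G2/M members and of all genes, one row per processing setting and per left-out array. All 3 phase medians lie to the right of the all-gene median in every row except that of normexp background correction, where all 3 lie to its left, between -0.00 and 0.07 against 0.084.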

How the data were processed

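Transcripts of microdissected E13.5 MGE were measured in 4 WT and 4 Nkx2-1cKO samples on 1-colour Agilent arrays, labelled with Cy3-CTP. The authors deposited Feature Extraction output (version 10.1 in the submitters' notes, 10.7.3.1 in the file headers), in which spot intensity had been background-subtracted within each array but not scaled between arrays. Flags deposited per spot (1 or 0) mark spots well above background and outliers. Here, control and outlier spots were left out, spots of a probe were averaged, and the log2 of the deposited intensity minus the array's 75th percentile was fitted with lmFit, eBayes and a trended variance (limma 3.58.1, R 4.3.3), p-values being adjusted over 31280 probes (Benjamini-Hochberg, threshold 0.05). Accessions of 24844 of 41174 probes matched a symbol in RefSeq. The fit was tested on simulated data. Slide was taken from the array barcodes, and scan date split the arrays in the same way. Deviations from the group means had correlations of -0.481 to -0.194 between the WT and Nkx2-1cKO arrays of one replicate number. Such arrays always lay on different slides, so the correlations cannot show whether samples were paired, and pairing was not assumed. No spot was saturated.

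Members and lists were chosen with earlier results of these data known. Values in every array are given for the 3 members of each phase with the largest difference and the 1 nearest 0, for members past the threshold, without overlap or with probes opposed in sign at an unadjusted p under 0.05, and for others as marked. Alternatives were quantile normalization, median centring, normexp on the median spot intensity (offset 50), other filters on dim probes, slide and replicate blocks, an untrended variance, averaging over the probes of a gene, and fits without 1 array. The number of arrays limits the precision. Further genes without a matched probe, Skp2, Gins1, Pkmyt1, Kifc1 and Incenp, were not analysed here, and 1 listed marker is not reported here.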

Additional observations from a re-analysis of the deposited data

Results flagged for a closer look

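An array far from the other 3 of its group was found in 7 of the 88 groups examined (44 members in each genotype), by Dixon's ratio of the gap to the range. Chance alone flags about 1 in 20 groups, or 4.4 of 88. Cdkn1b in Nkx2-1cKO replicate 3 was at -0.64 where the other mutant arrays lay between 1.18 and 1.28. Cdkn1a in WT replicate 4 was at -0.14 where the others lay between -0.52 and -0.48, and Mcm2 in WT replicate 1 was at 2.44 where the others lay between 1.86 and 1.91. The remaining 4 were low values of S phase genes. Nkx2-1cKO replicate 2 gave 3.29 for Mcm5 (others 3.61 to 3.64), 4.42 for Mcm7 (others 4.71 to 4.75) and 3.18 for Rrm1 (others 3.498 to 3.54). WT replicate 3 gave 4.45 for Mcm7 (others 4.59 to 4.60). These 2 arrays also had the lowest S medians of their groups.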

How the results depend on the processing

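No member passed the adjusted threshold in any of the 17 alternatives. Differences of some named members changed sign: with quantile normalization Cdc6 was -0.013 and Bub1 -0.016, centred on the median Cdkn1a was 0.093, with normexp Cdc6 was -0.024, Plk1 -0.0083, Bub1 -0.022 and Aurkb -0.011, and with the mean of probes Bub1 was -0.017. The cause was not tested. Leaving out 1 array gave -0.44 to 0.20 for Cdkn1b, -0.11 to 0.065 for Cdkn1a, -0.063 to 0.043 for Cdc6, -0.059 to 0.10 for Bub1 and -0.017 to 0.33 for Aurkb, and medians of -0.00 to 0.16 for G1, 0.05 to 0.18 for S and 0.04 to 0.16 for G2/M. Over all probes, 132 were called higher and 192 lower. Centring left 94 and 115, normexp 63 and 92, and the slide block 209 and 265, while leaving out 1 array gave 64 to 120 higher and 131 to 174 lower. Whether replicate numbers pair the samples is not known. With the replicate block, 8 probes were higher and 65 lower. In that fit 0 members passed, 1 had an unadjusted p under 0.05 and the lowest adjusted p of a member was 0.824 (limma).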
